A study of Mus musculus with 11 samples.

Results

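The genes described here are 9 immediate early genes that respond to psychostimulants in neurons, Fos, Fosb, Junb, Jun, Egr1, Egr2, Arc, Npas4 and Nr4a1, together with Creb1, which encodes a transcription factor that acts upstream of them. They were chosen by symbol, and all 10 were found, each with 1 entry among the 25802 genes and 1 among the 24391 promoters of the deposited tables. The 13 CpG islands and 26 tiles of 5000 bp that overlap a promoter or a gene of the set were added, of 14841 islands and 259716 tiles in all. DNA methylation was measured by reduced representation bisulfite sequencing (RRBS) in whole pancreas of newborn wild-type C57BL/6N mice (postnatal day 0). Of 11 mice, 5 (3 females and 2 males) came from dams injected with amphetamine at 10 mg/kg body weight on embryonic days 14.5, 15.5 and 16.5, and 6 (3 females and 3 males) were saline controls. The data hold 2 comparisons over these same mice, amphetamine against control and female against male. The deposited tables summarise each group by its mean, SD, lowest and highest mouse, so that values are given below in that form. Litters are not given for single mice, so the p-values measure the spread between these mice, some of which may share a dam. Whole pancreas mixes acinar, duct, endocrine and other cells, and a change in cell makeup and a change in methylation within a cell type cannot be told apart.

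Immediate early genes are transcribed within minutes of a stimulus from factors that are already in the cell and need no new protein. A rise in cAMP or calcium leads to phosphorylation of CREB, the product of Creb1, which binds cAMP response elements in their promoters. The promoters typically lie in CpG islands, CpG-dense stretches that stay unmethylated in most tissues, and CREB binds poorly to its element when the CpG within it is methylated. Amphetamine releases dopamine and other monoamines, and in striatal neurons it induces Fos, Fosb, Egr1 and Arc through this route. In the pancreas the same genes answer to glucose, cAMP and growth factors. RNA is not part of the data analysed here.

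The sequences just upstream of 5 gene starts are shown because they hold TGACG, the core of the cAMP response element, whose CpG is open to methylation. Of the 10 genes, 8 had an entry among the RefSeq promoters (GRCm38, the assembly also called mm10), and Arc and Egr1 are named only. Within 250 bases before the start, TGACG was searched on both strands (as TGACG or CGTCA) and was found in 5 of 8 genes, against 17.8% of all 32851 RefSeq promoters. The shares over all promoters, for this and the other motifs below, were not matched for CpG content. The matches are in capitals, and each sequence reads 5′ to 3′ on the strand of its gene. For Npas4 only 30 bases are shown. They lie before the gene start used here, but the GENCODE annotation places them inside an untranslated region.
Fos, chr12:85473640-85473889, plus strand: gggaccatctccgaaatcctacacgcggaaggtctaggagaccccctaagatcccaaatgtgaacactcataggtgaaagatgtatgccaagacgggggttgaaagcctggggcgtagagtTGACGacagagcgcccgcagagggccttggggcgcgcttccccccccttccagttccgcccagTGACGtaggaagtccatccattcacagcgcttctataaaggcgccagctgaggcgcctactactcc
Fosb, chr7:19310052-19310295, minus strand: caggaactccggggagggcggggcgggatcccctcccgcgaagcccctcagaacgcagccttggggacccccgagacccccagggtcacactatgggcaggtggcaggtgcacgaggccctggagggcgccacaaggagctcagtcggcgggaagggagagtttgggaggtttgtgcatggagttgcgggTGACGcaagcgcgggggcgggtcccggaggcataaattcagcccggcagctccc
Junb, chr8:84978749-84978998, minus strand: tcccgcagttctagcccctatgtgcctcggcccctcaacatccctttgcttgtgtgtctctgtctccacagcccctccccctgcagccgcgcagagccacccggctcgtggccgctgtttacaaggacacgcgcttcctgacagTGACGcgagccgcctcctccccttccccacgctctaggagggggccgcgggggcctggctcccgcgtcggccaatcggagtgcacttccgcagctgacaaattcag
Nr4a1, chr15:101266596-101266845, plus strand: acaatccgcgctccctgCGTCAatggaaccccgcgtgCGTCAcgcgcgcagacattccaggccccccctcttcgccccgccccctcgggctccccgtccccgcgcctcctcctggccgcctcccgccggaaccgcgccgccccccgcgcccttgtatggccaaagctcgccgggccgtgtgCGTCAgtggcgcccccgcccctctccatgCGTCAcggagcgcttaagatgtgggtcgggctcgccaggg
Npas4, chr19:4990129-4990158, minus strand: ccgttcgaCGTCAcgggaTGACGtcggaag

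The 5 genes hold 10 such matches, 4 of them at Nr4a1, 2 each at Fos and Npas4, and 1 each at Fosb and Junb. At Fos they begin 129 and 66 bases before the start, at Fosb 60 and at Junb 106 bases before it. The full palindrome TGACGTCA, which contains TGACG, was in none of the 8 windows (1.55% of all RefSeq promoters), nor was the AP-1 element TGANTCA (6.75%) or a CArG box, the binding motif of SRF (1.47%). Sequence farther upstream was not searched, nor were Arc and Egr1, so the genes may hold these motifs elsewhere. The EGR motif GCGNGGGCG, searched on both strands, was in 3 of 8 (Fosb, Nr4a1 and Creb1) against 4.7%, and TATAAA, searched on the strand of the gene, was in Fos alone against 7.59%. RRBS reads start where MspI or TaqI cuts, and 6 of the 10 TGACG matches have their CpG within 50 bases of such a site: both at Npas4, those at Fosb and Junb, and the 2 nearest the start at Nr4a1. The CpGs of both Fos matches are 146 and 104 bases from the nearest site. The tables give averages over whole regions, so the methylation of these single CpGs was not analysed here.

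A promoter in the tables runs from 1500 bp before to 500 bp after the gene start. The 10 promoters hold between 50 (Egr1) and 128 (Jun) CpG sites in the reference, of which between 18 (Egr1) and 87 (Creb1) lie within 50 bases of a cut site, against medians of 58 and 31 over all promoters. Mean coverage of a promoter, taken as reads summed over its CpG sites, ranged from 54.2 (Egr1, amphetamine) to 1152 (Fosb, amphetamine). The ratio of summed tile coverage was 1.24 for amphetamine over control mice and 1.12 for females over males. As a check of the sex labels, 72.9% of 1026 X-linked promoters had a higher mean in females, against 49.6% of the autosomal ones.

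In control pancreas 9 of the 10 promoters had a mean of at most 8.72%, and Npas4 was the exception. Control means were 1.22% at Junb, 1.47% at Jun, 1.82% at Nr4a1, 2.15% at Creb1, 2.56% at Fosb, 3.47% at Egr1, 3.56% at Egr2, 4.97% at Fos and 8.72% at Arc. Npas4 stood at 35.2%, although its start lies in a CpG island. Among the 12783 promoters that overlap an island and had reads in all mice, whose median was 2.69%, the Npas4 promoter was at the 97.2 percentile and Arc, the next of the set, at the 82.8 percentile. From Junb to Arc, neighbours in this order differed by less than the larger of their SDs between mice.

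Prenatal amphetamine was compared with saline to ask whether promoter methylation of these genes differed at birth. It did not pass the test at any of them. By limma's moderated test over all 23982 promoters, 0 of 10 were called at an adjusted p under 0.05 (0.00417% of all promoters were), and 0 of 10 had an unadjusted p under 0.05 (4.51%). The mean was higher in amphetamine mice at 5 promoters and lower at 5, the median difference was 0.047 points (0 over all promoters), and at 9 of 10 the difference was smaller than the larger group SD. Of the 9 promoters with reads in all 11 mice, 0 had group ranges that did not overlap (0.395%).

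**Figure D1:**
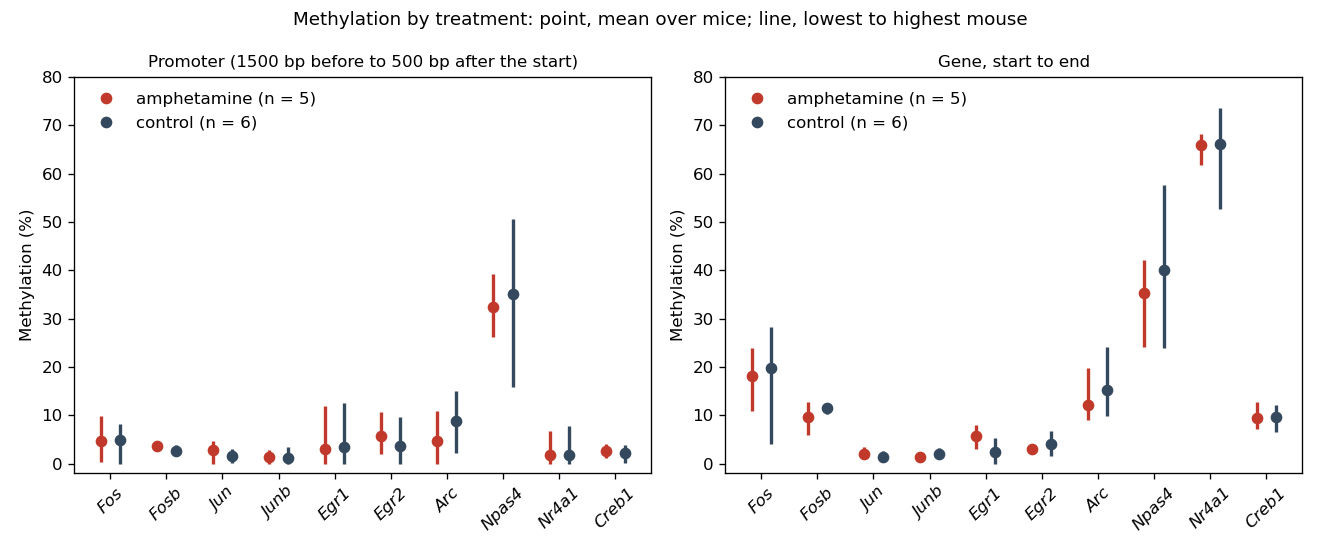
Methylation (percent, vertical axis) of the promoter (left) and of the whole gene (right) for the 10 genes, in amphetamine (red) and control (dark) mice. Points are means over mice and lines run from the lowest to the highest mouse. The ranges overlap at every gene, and Npas4 at the promoter and Nr4a1 over the gene stand above the rest.

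The AP-1 subunits are the members of the Fos and Jun families, which pair to form the AP-1 factor. Fos (ENSMUSG00000021250, chr12:85473890-85477273, plus strand), the classic marker of recent activation, had a promoter mean of 4.72% ± 3.49 (SD, range 0.395% to 9.89%) in amphetamine mice. In controls it was 4.97% ± 3.05 (0% to 8.1%), so the lowest mouse was a control and the highest an amphetamine mouse. The difference was -0.245 points (95% interval -4.39 to 3.9, limma adjusted p = 1).

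Fosb (ENSMUSG00000003545, chr7:19302721-19310045, minus strand), whose truncated product ΔFosB builds up in the striatum under repeated stimulant exposure, came closest to the threshold. Its promoter mean was 3.69% ± 0.672 (2.81% to 4.29%) in amphetamine mice and 2.56% ± 0.766 (1.72% to 3.85%) in controls. The group ranges overlapped between 2.81% and 3.85%. The difference of 1.13 points was the only one of the set larger than both SDs, with an interval of -0.024 to 2.29, an unadjusted p of 0.0541 and a limma adjusted p of 0.929.

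Jun (ENSMUSG00000052684, chr4:95049034-95052222, minus strand), the main partner of the Fos proteins, had 2.82% ± 2.06 (0% to 4.75%) in amphetamine mice and 1.47% ± 1.03 (0.164% to 2.97%) in controls, a difference of 1.35 points (-0.704 to 3.4, limma adjusted p = 0.929). Both the highest and the lowest mouse were amphetamine females. Junb (ENSMUSG00000052837, chr8:84976909-84978748, minus strand), a partner that restrains Jun in some settings, was at 1.32% ± 1.2 (0% to 2.72%) in amphetamine mice. Controls were at 1.22% ± 1.36 (0% to 3.33%), and the difference was 0.107 points (-1.59 to 1.81). The lowest coverage of a mouse at Junb was 620 in the amphetamine group and 245 in controls, where a value of 0 would allow a methylation of up to 0.484% and 1.22% (3 counts of the coverage, counting error only). If coverage is summed over CpG sites, a read over several CpGs counts more than once. Such limits, here and below, may then be too low.

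The EGR zinc-finger factors bind GC-rich sites in target promoters. Egr1 (ENSMUSG00000038418, chr18:34859823-34864984, plus strand) had the thinnest promoter data of the set, with reads in 4 of 5 amphetamine mice. Its promoter was at 3% ± 6 (0% to 12%) in those 4 mice and at 3.47% ± 5.54 (0% to 12.5%) in 6 controls. The lowest coverage of a control mouse was 34, where a value of 0 would allow up to 8.82%, and the interval of the difference, -8.13 to 7.18 points, was the widest after Npas4. Egr2 (ENSMUSG00000037868, chr10:67535475-67542188, plus strand), which is also a regulator of myelination, was at 5.71% ± 3.31 (1.91% to 10.6%) in amphetamine mice and 3.56% ± 4.3 (0% to 9.66%) in controls. The difference of 2.15 points was smaller than either SD (-2.76 to 7.07, limma adjusted p = 0.929).

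Nr4a1 (ENSMUSG00000023034, chr15:101266846-101274792, plus strand), an orphan nuclear receptor, had the 4 TGACG matches printed above and a promoter that was almost equal in both groups. The means were 1.81% ± 2.86 (0% to 6.82%) and 1.82% ± 2.98 (0% to 7.69%). The interval of the difference still ran from -3.7 to 3.68 points. Coverage at this promoter was 165 in amphetamine mice and 71.3 in controls, and the control mouse of lowest coverage had 22, where a value of 0 would allow up to 13.6%.

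Npas4 (ENSMUSG00000045903, chr19:4984355-4989971, minus strand), a bHLH-PAS factor induced by calcium in neurons and in beta cells, had the highest and most variable promoter. Amphetamine mice were at 32.3% ± 5.85 (26.1% to 39.2%) and controls at 35.2% ± 12 (16% to 50.6%). All amphetamine mice lay inside the control range, whose top was a control female and whose bottom a control male. The difference was -2.84 points (-17.9 to 12.2, limma adjusted p = 0.977), so a shift of 10 points in either direction lies within the interval. Among the 483 promoters with a control mean within 5 points of that of Npas4 and reads in all mice, 36.2% had a smaller control SD, and the median SD there was 15.3 points.

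Arc (ENSMUSG00000022602, chr15:74669083-74672570, minus strand), which encodes a synaptic protein that carries AMPA receptors off the membrane, had the largest difference in points among the 10 promoters. Its mean was 4.67% ± 4.53 (0% to 10.9%) in amphetamine mice and 8.72% ± 4.84 (2.12% to 15.1%) in controls. The ranges overlapped over most of their length, the difference of -4.05 points was smaller than either SD, and its interval was -10.0 to 1.92 (limma adjusted p = 0.929). Creb1 (ENSMUSG00000025958, chr1:64532645-64604548, plus strand) was at 2.58% ± 1.09 (1.24% to 4%) and 2.15% ± 1.33 (0.197% to 3.77%). Its difference of 0.429 points had an interval of -1.23 to 2.09, the narrowest of the set after that of Fosb.

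Over whole genes, the 10 members spread far more widely than at their promoters. Control means ran from 1.43% at Jun and 1.96% at Junb through 2.42% at Egr1, 4.03% at Egr2, 9.65% at Creb1, 11.6% at Fosb, 15.2% at Arc and 19.8% at Fos to 40.1% at Npas4 and 66.1% at Nr4a1. The gene region includes the 500 bp after the start that the promoter also holds, so both share reads. Nr4a1 showed the largest gap between promoter and gene: its promoter was at 1.82% and its gene at 66.1% in the same control mice. Among the 13769 genes that overlap an island and had reads in all mice, Nr4a1 was at the 89.7 percentile and Jun at the 3.51 percentile.

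By treatment, 0 of 10 genes were called over 25564 genes tested (0%), and 1 of 10 had an unadjusted p under 0.05 (4.3% of all genes). That gene was Egr1, at 5.66% ± 2.09 (2.92% to 8.03%) in 5 amphetamine mice and 2.42% ± 2.09 (0% to 5.24%) in 6 controls. The highest mouse was an amphetamine female and the mice at 0% were controls, and the ranges overlapped from 2.92% to 5.24%. The difference was 3.24 points (0.506 to 5.98), with an unadjusted p of 0.0245 and a limma adjusted p of 0.978. Mean coverage was 544 in amphetamine and 427 in control mice.

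At the other 9 genes the interval of the difference included 0. Npas4 was at 35.3% ± 7.38 (24% to 42.1%) against 40.1% ± 12.3 (23.9% to 57.6%), a difference of -4.79 points (-17.9 to 8.35). Arc was at 12.1% ± 4.43 (8.92% to 19.7%) against 15.2% ± 5.32 (9.78% to 24.2%), and Fosb at 9.58% ± 2.8 (5.94% to 12.7%) against 11.6% ± 0.88 (10.2% to 12.6%). The control mice were thus close together at Fosb, where the promoter and the gene differed in opposite directions between the groups, neither past the test. Fos was at 18.1% ± 5.53 (10.9% to 24%) against 19.8% ± 8.39 (4.06% to 28.2%).

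The remaining genes were within 1 point between the groups. Nr4a1 was at 66.0% ± 2.62 (61.9% to 68.2%) against 66.1% ± 7.41 (52.7% to 73.6%), with the control mice on both sides of the amphetamine mice. Creb1 was at 9.49% ± 2.31 against 9.65% ± 1.77, and Egr2 at 3.06% ± 0.859 against 4.03% ± 2.18. Jun was at 1.90% ± 0.953 against 1.43% ± 0.794 and Junb at 1.38% ± 0.517 against 1.96% ± 0.806, which leaves both almost free of methylation from start to end. Over the set the mean was higher in amphetamine mice at 2 genes and lower at 8, with a median difference of -0.777 points, beside 47.9% higher and a median of -0.0938 points over all genes. Of the 10 genes, 0 had group ranges that did not overlap (0.312% of all genes with reads in all mice).

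**Figure D2:**
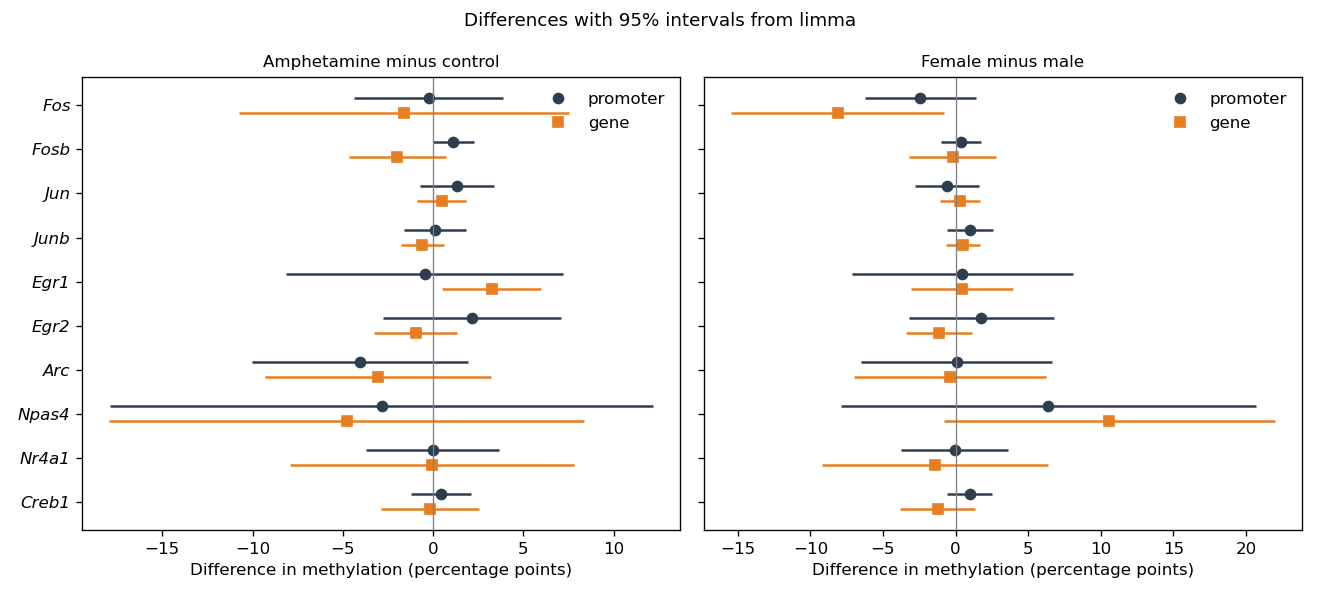
Differences in methylation (percentage points, horizontal axis) at the promoter (circles) and over the gene (squares), amphetamine minus control on the left and female minus male on the right, with 95% intervals from limma as bars. The intervals are narrow at Jun, Junb and Creb1 and wide at Npas4, and those that leave out 0 are Egr1 over the gene by treatment and Fos over the gene by sex.

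All 10 genes overlapped at least 1 CpG island, and Fosb, Egr1 and Egr2 overlapped 2 each. By treatment 12 islands could be tested, and 0 were called (0% of 14723 islands) and 0 had an unadjusted p under 0.05 (3.96%), with 0 ranges that did not overlap (0.443%). The thirteenth, an Egr1 island of 10 CpG sites in reach of reads (chr18:34859827-34860053), had reads in only 2 amphetamine mice. Npas4 and Arc again had the highest means. Npas4 led (chr19:4989710-4990055, 26.2% ± 8.23 in amphetamine and 33.9% ± 13.7 in control mice), Arc followed (chr15:74671939-74672803, 4.16% ± 3.98 and 8.76% ± 5.74), and the other tested islands had group means between 1.16% and 4.89%. The Npas4 island ranged from 10.5% in a control male to 49.2% in a control female, and its difference of -7.67 points had an interval of -24.7 to 9.37.

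Fosb and Egr1 each have an island at the start and another inside the gene. At Fosb the island over the start (chr7:19308621-19310450) was at 2.33% ± 1.96 in amphetamine mice and 1.16% ± 0.997 in controls, and the one inside the gene (chr7:19304862-19305262) at 2.31% ± 4.43 and 4.89% ± 4.91. At Egr1 the island inside the gene (chr18:34860475-34861222) was at 3.92% ± 3.55 (0% to 7.84%) in amphetamine mice and 1.27% ± 1.73 (0% to 4.51%) in controls. This island shares its reads with the gene value of Egr1, and its own difference of 2.65 points did not pass the test (-0.845 to 6.14, limma adjusted p = 0.922). The islands at Jun (chr4:95049986-95053224), Junb (chr8:84976172-84978911), Creb1 (chr1:64532368-64533738) and the larger one at Egr2 (chr10:67535272-67537740) had mean coverages of 971 or more and group means of at most 2.39%. The smaller Egr2 island (chr10:67538300-67539109), the Fos island (chr12:85473439-85474752) and the Nr4a1 island (chr15:101266446-101267076) had differences of at most 0.297 points.

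The tiles show where along each gene the methylation lay. Of the 26 tiles, 25 had reads in at least 3 mice of each group, and 0 were called by treatment (0.00355% of 253516 tiles), 2 had an unadjusted p under 0.05 (4.26%) and 0 had ranges that did not overlap (0.351%). In control mice the tile that holds the gene start was at 1.32% at Jun, 1.54% at Junb, 2.02% at Creb1, 2.52% at Egr2, 4.36% at Fosb, 6.85% at Fos, 11.7% at Egr1, 12.2% at Nr4a1, 16.2% at Arc and 40.1% at Npas4. Npas4 was again the highest.

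Away from the start the levels were higher at most genes. Egr1 went the other way in controls, at 11.7% in the tile that holds the start and 1.90% in the next. At Fosb the start tile (4.36%) lay between the other 2 (3.19% and 23.4%). The tiles are fixed bins, and the start tiles of Egr1 and Fosb lie mostly before the gene. The tile over the 3′ part of Nr4a1 (chr15:101270001-101275000) was at 90.4% ± 5.52 (81.1% to 95.2%) in amphetamine mice and 85.9% ± 6.18 (74.3% to 90.9%) in controls, while that at its start (chr15:101265001-101270000) was at 13.3% ± 8.15 and 12.2% ± 9.08. The second tile of Fos (chr12:85475001-85480000) was at 53.3% ± 13.3 and 55.2% ± 18.3, against 5.33% ± 2.7 and 6.85% ± 3.27 in the first. Npas4 was not low at its start in controls: its 3 tiles were at 32.6% before the start, 40.1% over the start and 69.6% at the gene end. The last had a mean coverage of 13 in controls, whose mice ranged from 0% to 100% there. The middle tile has the same values as the gene, since it holds the same reads.

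Of the tiles below an unadjusted p of 0.05 by treatment, that over Egr1 (chr18:34860001-34865000) covers nearly the same reads as the gene value above. It was at 5.63% ± 2.48 (2.92% to 8.34%) in amphetamine mice and 1.90% ± 2.41 (0% to 6.01%) in controls, a difference of 3.73 points (0.511 to 6.95, limma adjusted p = 0.952). The other, inside Creb1 (chr1:64580001-64585000), was at 66.7% in 3 amphetamine mice and 100% in 4 controls with a mean coverage of 1.4 and 1, and at most 4 in any mouse. The tile before the start of Npas4 (chr19:4990001-4995000) was at 47.9% ± 14.4 (33.3% to 64.7%) in amphetamine mice and 32.6% ± 9.05 (23.2% to 47.3%) in controls. Its sign was opposite to that of the promoter, which lies partly in the same tile, and its difference of 15.3 points did not pass the test (-0.105 to 30.7, limma adjusted p = 0.952).

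**Figure D3:**
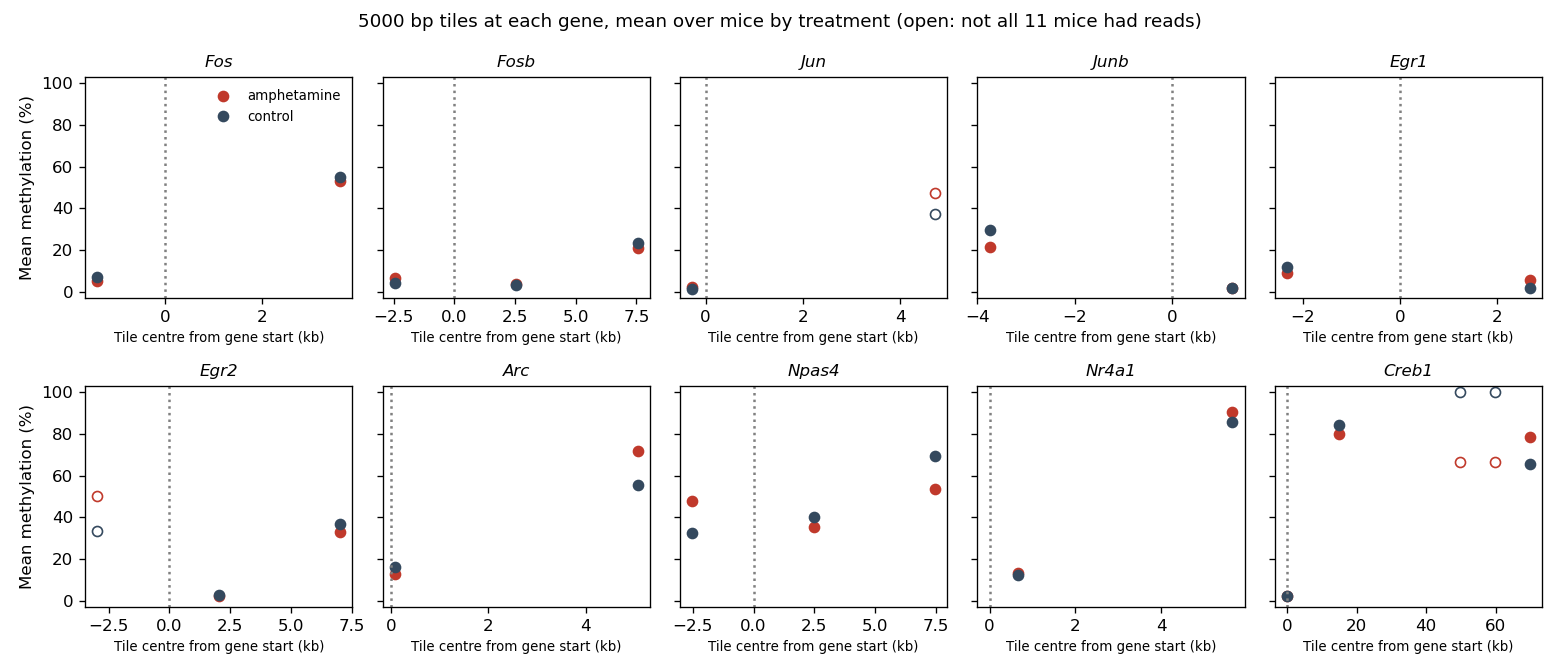
Mean methylation (percent, vertical axis) of each 5000 bp tile against the distance of its centre from the gene start in kb (dotted line, negative before the start), for amphetamine (red) and control (dark) mice. Filled points are tiles with reads in all 11 mice and open points those with fewer. Tiles that hold the start have means of at most 16.2% at every gene but Npas4, the second tile is higher at Fos and Nr4a1, and the open points at Creb1 have a coverage of at most 4 in any mouse.

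The comparison of females with males uses the same 11 mice, so its values share every sample with those above. By sex 0 of 10 promoters were called (0.553% of 23884 promoters) and 0 had an unadjusted p under 0.05 (6.56%), and 0 had ranges that did not overlap (1.55%). The lowest unadjusted p, 0.187, was at Fos, at 3.76% ± 3.15 (0% to 7.97%) in 6 females and 6.18% ± 2.72 (3.33% to 9.89%) in 5 males, with a limma adjusted p of 0.883. Npas4 was at 36.8% ± 8.02 (27.9% to 50.6%) in females and 30.4% ± 10.5 (16% to 43.1%) in males, a difference of 6.38 points (-7.92 to 20.7). Arc had nearly the same mean in both sexes (6.91% ± 6.17 and 6.84% ± 3.67), with the wider spread in females.

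Over the genes, 0 of 10 were called by sex (0.381% of 25478 genes) and 1 had an unadjusted p under 0.05 (6.39%), with 0 ranges that did not overlap (1.03%). Fos was at 15.3% ± 7.04 (4.06% to 22.2%) in females and 23.5% ± 3.69 (19.6% to 28.2%) in males, with the top of the female range above the lowest male. The difference was -8.11 points (-15.5 to -0.777), with an unadjusted p of 0.0333 and a limma adjusted p of 0.735. The second Fos tile had the same sign, 47.5% ± 17 in females and 62.7% ± 9.04 in males, and did not pass the test (-34.0 to 3.55). Npas4 had the opposite sign, at 42.7% ± 8.52 (31.7% to 57.6%) in females and 32.1% ± 9.54 (23.9% to 44.6%) in males (difference 10.6 points, -0.83 to 22, limma adjusted p = 0.812).

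Egr1, the lone gene under an unadjusted p of 0.05 by treatment, was at 4.10% ± 3.08 in females and 3.64% ± 2.23 in males. Fosb, Arc and Nr4a1 had differences of -0.2, -0.396 and -1.42 points between the sexes. Of the 13 islands 0 were called by sex (1.05% of 14698 islands), 0 had an unadjusted p under 0.05 (6.31%) and 0 had ranges that did not overlap (1.91%). The Npas4 island was at 34.2% ± 10.7 in females and 25.8% ± 12.3 in males.

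Of 25 tiles tested by sex, 0 were called (0.0577% of 251358 tiles), 2 had an unadjusted p under 0.05 (5.39%) and 0 had ranges that did not overlap (0.626%). The tile at the end of Npas4 (chr19:4980001-4985000) was at 84.6% ± 23.9 (50% to 100%) in females and 35.6% ± 45.8 (0% to 100%) in males, with a mean coverage of 8.83 and 14.4. The last tile of Creb1 (chr1:64600001-64605000) was at 60.4% ± 22.8 (29.2% to 80.5%) and 85.1% ± 12.5 (71.8% to 100%). Both had a limma adjusted p of 0.898.

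**Figure D4:**
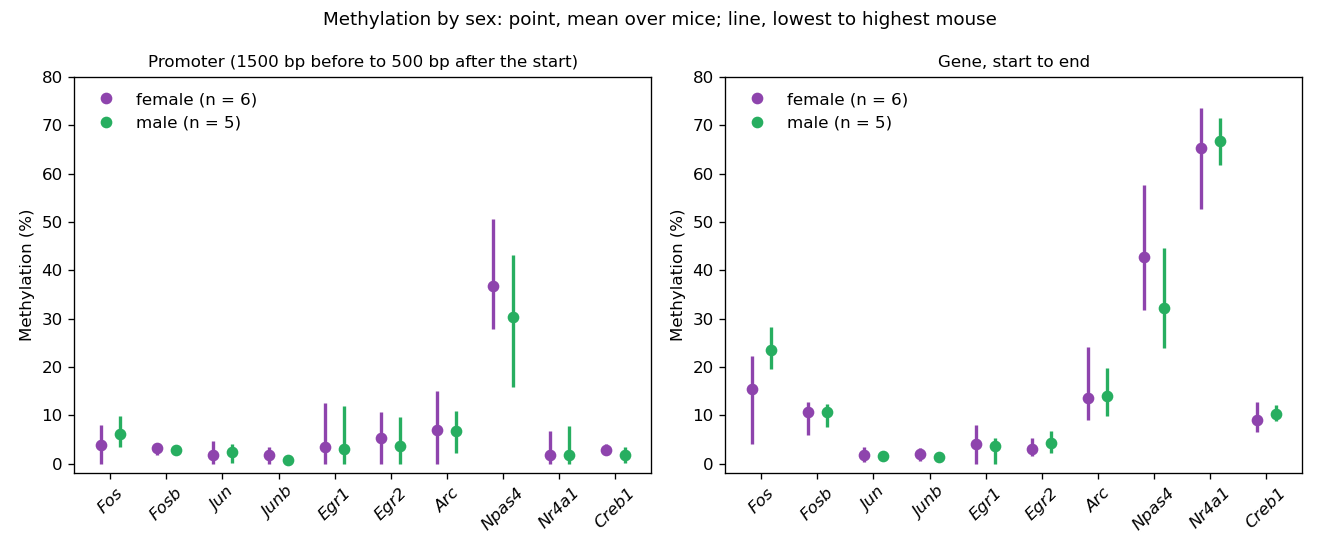
Methylation (percent, vertical axis) of the promoter (left) and of the whole gene (right) for the 10 genes in females (purple) and males (green). Points are means over mice and lines run from the lowest to the highest mouse. Over the gene, the male mean is higher at Fos (23.5% against 15.3%) and the female mean at Npas4 (42.7% against 32.1%), with overlapping ranges in both.

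A wider list of 70 symbols from the same programme was read from the same fits: 10 relatives of the members, 32 other immediate early genes and 28 upstream factors of the CREB and SRF routes. Of these, 68 were found among the promoters and 68 among the genes. Cyr61 and Ccn1 are 2 names of 1 gene. By treatment 0 of 67 promoters (0.00417% of all promoters) and 0 of 68 genes (0% of all genes) were called, and 33 promoters were higher in amphetamine mice and 34 lower, with a median difference of -0.0199 points. Control levels were low here too, with a median of 2.1% and 4 promoters above 20%.

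At 4 of the 67 promoters the unadjusted p was under 0.05, beside 4.51% of all promoters. Nr4a3, a relative of Nr4a1, was at 0.963% in amphetamine mice and 2.63% in controls, and Dusp5, a phosphatase of ERK, at 1.06% and 2.88%. Fosl1, a further Fos relative, was at 1.97% and 0.193%, and Mef2a, a MADS-box factor, at 3.23% and 1.25%. All 4 differences were under 2 points, and their adjusted p was 0.929. The largest difference among the tested promoters was at X-linked Rps6ka3, a kinase that phosphorylates CREB, at 49.1% ± 31 and 83.3% ± 40.8, with an interval of -80.5 to 12.0 points. The Jund promoter was not tested, with 43.2% in 4 amphetamine mice and 100% in the 2 controls with reads, at a mean coverage of 9.2 and 4.83.

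Over the genes, 33 were higher and 35 lower, and 7 of 68 had an unadjusted p under 0.05, beside 4.3% of all genes, each with an adjusted p of 0.978. Btg2 (9.19% and 4.12% in amphetamine and control mice), Zfp36, which destabilises short-lived mRNAs (3.49% and 0.8%), and Camk4, a calcium-dependent kinase of CREB (77.1% and 73.6%), had the higher mean in amphetamine mice. Cyr61 (3.67% and 7.52%), Nab1, a corepressor of EGR factors (8.61% and 10.3%), Mapk3, which encodes ERK1 (41.8% and 51.5%), and Ppp1r1b had the lower mean there. Ppp1r1b encodes DARPP-32, the dopamine- and cAMP-regulated phosphatase inhibitor, and was the 1 gene of the list whose groups did not overlap (0.312% of all genes): 19.5% ± 2.43 (16.4% to 22%) in amphetamine mice and 23.5% ± 0.997 (22.1% to 24.5%) in controls. The largest difference was at X-linked Elk1, a partner of SRF, at 71.9% ± 23.9 in 5 amphetamine mice and 48.5% ± 11.1 in the 5 controls with reads. Its interval was -1.12 to 48.0 points.

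By sex, 0 promoters (0.553% of all) and 0 genes (0.381%) of this list were called. The count at an unadjusted p under 0.05 was 0 promoters (6.56% of all) and 2 genes (6.39%). Rps6ka3, which lies on the X chromosome, was at 46.2% ± 3.33 in females and 37.5% ± 4.25 in males over the gene, without overlap of the groups, as for 1.03% of all genes (limma adjusted p = 0.365). Per1, a clock gene with cAMP response elements, was at 69.9% ± 3.81 and 79.9% ± 10.3. Rps6ka3 also had the largest difference by sex among the tested promoters, 82.6% in females and 50% in males, with a coverage of 44 and 12.4.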

How the data were processed

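Pancreas DNA of the 11 newborn mice was digested by the authors with MspI and TaqI, bisulfite converted and sequenced, and the submitters' processing notes name Bismark, methylKit, limma and the mm10 build. Regions were summarised with RnBeads, and for Bismark and limma the version is not given in the sources used here. In the tables the authors deposited, methylation is a group's mean fraction over its mice with reads, given here as a percent, with the SD, lowest and highest mouse and the number of mice without reads. Coverage is a signal that the authors give as a group mean, not scaled for depth, and it was taken to sum reads across a region's CpGs, which is not stated. The depth of single mice was not analysed here. The authors' own comparison columns (differences, log2 quotients, p-values, adjusted p-values and ranks) were not used.

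From the means, SDs and numbers of mice, limma's moderated test (two-sided, variance trend on mean methylation) was recomputed over every region of a table with reads in at least 3 mice per group. P-values were adjusted by Benjamini-Hochberg over the whole table, and a region was called at an adjusted p under 0.05. Group ranges that do not overlap were counted among regions with reads in all mice. For 5 against 6 such mice this is an exact rank test with a two-sided p of 0.00433, the smallest that design allows. Intervals are 95% intervals of the difference. The recomputed test was tested on simulated data with known shifts. It matched lmFit and eBayes, but it called only 26% of promoters shifted by 10 points and 60% of those shifted by 30 points. The promoter differences of the set were smaller than both shifts, so a lack of calls does not show that groups are alike.

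The genes, the wider list and the tests were chosen with earlier results of these data known. The text names all 10 genes, every island at them, the tile at each gene start, tiles and listed genes with an unadjusted p under 0.05 or no overlap of ranges, and the largest differences in the list. The tile before the Npas4 start and the second tiles of Fos and Nr4a1 were named after their values were seen. Alternatives were a fit with no trend, an arcsine scale, other limits on mice and coverage, no X and Y chromosomes, overlap of islands and tiles, and other call rules. Sequences and CpG sites were read from RefSeq and the GRCm38 reference. R 4.3.3 with limma 3.58.1 and Python 3.11.15 with numpy 2.4.6 and pandas 2.3.3 were used.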

Additional observations from a re-analysis of the deposited data

How the results depend on the processing

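No gene, promoter, island or tile of the set passed the adjusted threshold under the alternatives. Over 115 values, all 780 alternative values that could be computed kept the side of the threshold, and the adjusted p ran from 0.442 to 1. The sign could not change, since every alternative used the same group means. These alternatives were the fit with no trend, the arcsine scale, the limits on mice and coverage and the removal of X and Y. All 10 genes are autosomal, so that removal could act only through the variance fit and the p-value adjustment. The count at an adjusted p under 0.05 was 0 throughout. Regions were also counted by an unadjusted p under 0.05 in its place. The member genes then gave 1 of 10 by treatment (4.3% of all genes) and 1 of 10 by sex (6.39%). Member tiles gave 2 of 25 by treatment (4.26% of all tiles) and 2 of 25 by sex (5.39%). The wider list, an alternative added after seeing the data, gave 4 of 67 promoters (4.51% of all) and 7 of 68 genes (4.3%) by treatment. By sex it gave 2 of 68 genes (6.39%). Counted by ranges that do not overlap, that list gave 1 gene by treatment (0.312% of all genes with reads in all mice) and 1 by sex (1.03%). No paired analysis was possible because the tables hold group summaries and the labels give no replicate numbers that pair mice between groups. Leaving out each mouse in turn was not run for the same reason, and no value within a sex or treatment group was computed, so the 3 females and 2 males among amphetamine mice against 3 and 3 among controls were not adjusted for. Depth limits the Egr1 and Nr4a1 promoters and the tiles of low coverage at Creb1 and Npas4.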
